A study of Mus musculus with 6 samples.

Results

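The genes of glycolysis and of glycogen metabolism were followed in muscle from 6 mice, with 1 array per mouse. The set holds 38 genes, taken by name from the enzymes that phosphorylate glucose, carry it to pyruvate and lactate, and store it as or release it from glycogen, together with some of their regulators. Probe sets, which are groups of short probes against the same transcript, were assigned to a gene when the platform annotation gave that gene as their only symbol, under its current or an older name. In this way 35 of the 38 genes were represented by 75 of the 45037 probe sets tested, and the whole table held 18193 named genes. No tested probe set was named to Gpi1, Eno1 or Gapdh alone. Gapdh was read only by 3 control probe sets of the manufacturer and by 3 probe sets that also carry names of its pseudogenes, which are given apart. A further probe set that carries Hk1 beside other symbols was not used.

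Muscle was taken from 3 animals carrying the label wild type (WT) and 3 carrying the label SIRT6KO (KO), all of the 129SvJ background and numbered 1 to 3 within each label. SIRT6 is a NAD-dependent deacylase of chromatin, and it is known as a repressor of glycolytic genes that the hypoxia-inducible factor HIF-1 activates; whether these genes differ between the labels is the comparison made here. The labels give neither which muscle was taken nor the age or sex of the animals, and they do not describe the knockout allele. The Sirt6 probe set 1429631_at read 23.2, 15.1 and 21.3 with the WT label and 22.6, 18.3 and 13.7 with the KO label, so the groups overlapped; the labels do not say whether its target was deleted, so it checks nothing about them. Xist, the RNA of the inactive X chromosome, read 0.7 to 3.4 in the WT-labelled and 221.7 to 250.9 in the KO-labelled arrays at 1427262_at, and the Y-linked Eif2s3y, named after its values were seen, read 44.5 to 77.1 and 1.1 to 4.1 in the same order at 1417210_at. Genotype and sex therefore cannot be told apart in any value below, which applies also to the X-linked members Pgk1 and Phka1.

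All values are intensities on a linear scale. WT replicate 1 was brighter than the other arrays: the spiked hybridization controls stood at 1.93 times the level of WT replicate 2 there, and at 0.957 to 1.01 times in the remaining arrays. Array medians lay between 10.8 and 15.0. Because WT replicate 1 raises the WT mean of bright genes, direction was also read after quantile normalization, which gives every array the same distribution of values. The 12 fast fibre markers, among them Myh1, Myh2 and Myh4, summed to 95111.2 to 154178 in the WT-labelled and 94003.5 to 100682 in the KO-labelled arrays. As a list, these markers were thus bright in every array. In bulk muscle, fewer cells of a type and less RNA per cell cannot be told apart.

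Glycolysis splits glucose into pyruvate, and muscle runs it at high rate during hard contraction, when pyruvate is reduced to lactate. Glycogen is the glucose store of the fibre: glycogenin starts the chain, glycogen synthase and the branching enzyme extend it, and glycogen phosphorylase, switched on by phosphorylase kinase, releases glucose units from it. Several steps have a form typical of skeletal muscle, such as Pfkm, Pgam2, Eno3 and Pygm, beside forms that prevail in liver, brain or other tissues.

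No member passed the test over the whole array. Limma on log2(intensity + 16), its p-values adjusted by Benjamini-Hochberg across the 45037 probe sets, called 0 of the 75 member probe sets at 0.05, against 4 probe sets in all (0.00888%), and the lowest adjusted p of a member was 0.430, for Pfkl. At an unadjusted p under 0.05 there were 13 member probe sets, 10 lower and 3 higher, where 8.56% of all probe sets reached that limit. Each gene is represented below by whichever of its probe sets was brightest on average.

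At the level of genes the KO-labelled means leaned downward. Of the 35 genes, 26 (74.3%) had a lower KO-labelled mean log2 level, against 53.2% of all genes and 52% of those above the median level, and the median log2 change was -0.17 (a fold of 0.888), against -0.02 for all genes. Without WT replicate 1 these medians were -0.038 and 0.036, without WT replicate 3 -0.29 and -0.07, and without KO replicate 3 -0.10 and -0.03. In 6 of 35 (17.1%) every KO-labelled array lay below every WT-labelled one, where 8.34% of all genes and 9.67% of genes above the median level did so, and in 0 of 35 every KO-labelled array lay above, against 4.51% and 4.67%. The 6 genes were Pfkl, Pgam1, Pgam2, Ldha, Gpd1 and Stbd1. An unadjusted limma p under 0.05 was reached by 5 genes downward (14.3%, against 6.29% of all genes) and by 1 upward (2.86%, against 3.54%). With quantile normalization 24 of 35 means were lower (68.6%, against 52.3%). In that setting 5 of 35 members had every KO-labelled array below (14.3%, against 10.3% of all genes), namely the 6 named above without Pgam1. In 3 members, Gyg, Gbe1 and Gsk3b, every KO-labelled array lay above (8.57%, against 8.86% of all genes). These counts moved with single arrays, and those of all genes moved too. Without WT replicate 3, 12 members lay below (34.3%, against 19.1% of all genes). Without KO replicate 1, 11 lay below (31.4%, against 12.5%) and 4 above (11.4%, against 16.4%).

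**Figure D1:**
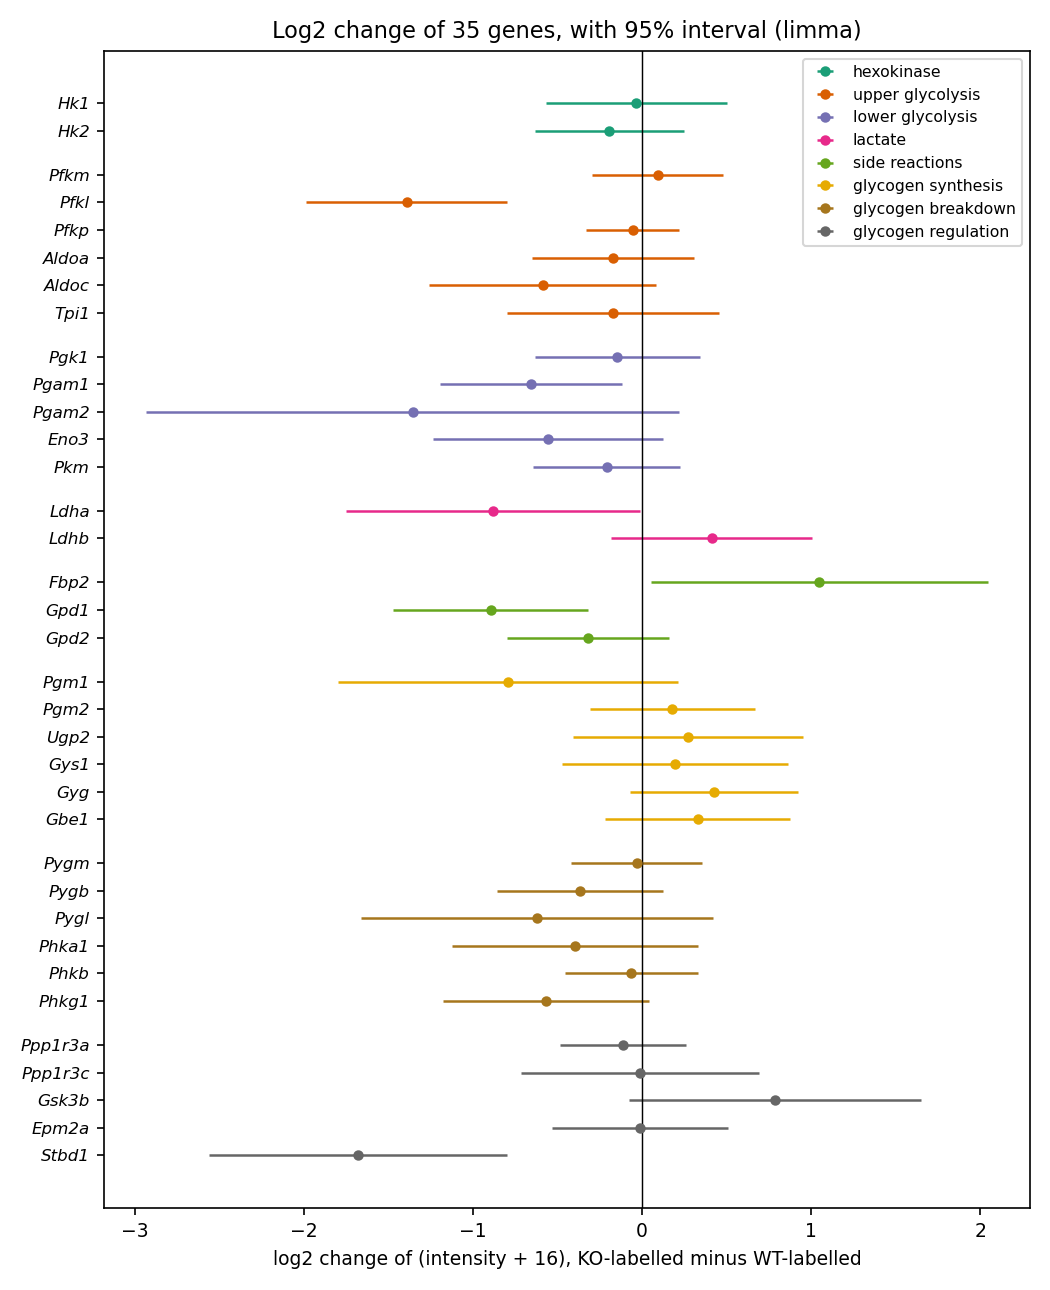
Log2 change of (intensity + 16), KO-labelled minus WT-labelled, for the 35 genes, with limma's 95% interval (n = 3 arrays each), coloured by role in the pathway. Stbd1 (-1.68) and Pfkl (-1.39) lie farthest left and Fbp2 (1.05) farthest right, and most intervals cross 0.

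KO replicate 3 was the lowest of the 6 arrays for 15 of the 35 genes (42.9%), against 20.5% of all genes, and with quantile normalization for 18 (51.4%), against 24.4%. WT replicate 3 was the lowest for 13 as deposited and for 3 after quantile normalization. WT replicate 1 was the highest array for 20 of the 35 as deposited (57.1%, against 36.1% of all genes) and for 5 after quantile normalization.

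The stretches of DNA just upstream of the 6 genes with no overlap are shown because HIF-1, the factor that SIRT6 is known to oppose at glycolytic genes, binds a short core that can be read directly from them. The RefSeq promoter table (GRCm38.p6) held 5 of the 6, and the 250 bases before each start site are printed 5′ to 3′ on the gene's strand. Capitals mark the core ACGTG or GCGTG on either strand, so that CACGT and CACGC are marked too; in CACGTG, which is also the E-box, the core matches on both strands and counts as 2 overlapping matches. Ldha has a pair of start sites in the table. They are Pfkl at chr10:78009808-78010057 (minus strand), Pgam1 at chr19:41911621-41911870 (plus), Pgam2 at chr11:5803797-5804046 (minus), Ldha at chr7:46845554-46845803 and chr7:46846832-46847081 (plus) and Stbd1 at chr5:92602801-92603050 (plus).
Ldha upstream start: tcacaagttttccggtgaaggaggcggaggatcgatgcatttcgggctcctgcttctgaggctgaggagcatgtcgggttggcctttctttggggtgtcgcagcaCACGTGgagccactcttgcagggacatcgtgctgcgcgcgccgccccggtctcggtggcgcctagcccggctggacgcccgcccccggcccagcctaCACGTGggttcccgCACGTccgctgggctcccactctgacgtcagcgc
Ldha downstream start: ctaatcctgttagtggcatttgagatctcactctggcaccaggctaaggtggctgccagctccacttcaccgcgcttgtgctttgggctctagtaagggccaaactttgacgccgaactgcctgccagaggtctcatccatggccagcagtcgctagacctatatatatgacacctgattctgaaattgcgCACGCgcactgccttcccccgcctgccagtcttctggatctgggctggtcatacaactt
Pgam1: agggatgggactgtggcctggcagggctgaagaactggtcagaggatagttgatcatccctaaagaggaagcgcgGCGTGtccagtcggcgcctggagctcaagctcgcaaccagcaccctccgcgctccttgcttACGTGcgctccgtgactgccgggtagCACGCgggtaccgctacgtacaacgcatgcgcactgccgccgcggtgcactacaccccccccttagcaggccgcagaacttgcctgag
Pgam2: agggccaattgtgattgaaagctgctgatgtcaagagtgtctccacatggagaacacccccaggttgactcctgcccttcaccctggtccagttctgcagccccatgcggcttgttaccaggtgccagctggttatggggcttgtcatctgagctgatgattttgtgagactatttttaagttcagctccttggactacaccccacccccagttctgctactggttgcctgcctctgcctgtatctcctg
Pfkl: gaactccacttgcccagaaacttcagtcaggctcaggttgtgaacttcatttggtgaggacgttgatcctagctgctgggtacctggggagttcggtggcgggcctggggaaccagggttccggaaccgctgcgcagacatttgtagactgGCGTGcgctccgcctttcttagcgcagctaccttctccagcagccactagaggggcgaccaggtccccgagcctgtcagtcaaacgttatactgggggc
Stbd1: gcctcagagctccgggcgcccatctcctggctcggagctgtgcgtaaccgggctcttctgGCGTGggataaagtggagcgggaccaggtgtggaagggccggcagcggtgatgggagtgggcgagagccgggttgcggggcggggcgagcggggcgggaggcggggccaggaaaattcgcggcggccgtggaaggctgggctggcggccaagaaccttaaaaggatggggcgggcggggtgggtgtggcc
The upstream Ldha stretch held 5 matches, the first at 145 bases before the start site, and both E-box copies of the printed set. Pgam1 held 3, Pfkl, Stbd1 and the downstream Ldha start 1 each, and the muscle form Pgam2 held 0. Over the whole set, 36 of 50 member promoters (72%, from 37 genes) held the core, against 38.6% of all 32851 promoters of that length. Their median GC content was 60%, against 52.4% of all promoters, and its part in that difference was not tested. A match is only a run of letters, and binding was not measured here.

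Among the first enzymes of the path, only the liver-type phosphofructokinase was without overlap. Hk2, the insulin-responsive hexokinase of muscle that traps glucose in the fibre, read 401 ± 93.5 in the WT-labelled and 343 ± 20.8 in the KO-labelled arrays (SD, n = 3 each), with a log2 change of -0.19 (95% interval -0.63 to 0.25). Without WT replicate 1 the Hk2 change was -0.034 and without WT replicate 3 it was -0.36. Hk1, the widely expressed hexokinase, read 50.3 ± 13.5 and 48.9 ± 15.1, and its mean was higher in the KO-labelled arrays without WT replicate 1 (log2 change 0.11) or KO replicate 3 (0.12).

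Phosphofructokinase, the committed step of glycolysis, is made of the subunits Pfkm (muscle), Pfkl (liver) and Pfkp (platelet). Here and below, values stand in the order of replicates 1, 2 and 3, the WT-labelled first. Pfkl read 225.6, 116.6 and 142.0 against 51.2, 60.3 and 38.5 at probe set 1439148_a_at. Every KO-labelled array was below every WT-labelled one, and the spread among the KO-labelled arrays was small. The change was 2.63-fold lower (95% interval 1.74 to 3.96), with limma's adjusted p at 0.430 over all probe sets. It was 2.21-fold lower without WT replicate 1. The log2 change of -1.39 became -0.65 when the 3 Pfkl probe sets were averaged. A further Pfkl probe set, 1450269_a_at, read 175.6, 99.3 and 114.2 against 73.5, 82.9 and 71.9, again with no overlap, whereas the dim 1453541_at read 25.8, 19.0 and 7.7 against 13.3, 25.2 and 17 and overlapped.

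The muscle subunit overlapped between the groups. Pfkm read 4143.2, 3698.2 and 3047.1 against 4047.4, 4143.4 and 3367.3, with a log2 change of 0.09 (interval -0.30 to 0.48). Pfkp was near the offset in every array, at 25.7 to 27.6 and 22.2 to 26.5. Aldoa, the muscle aldolase that splits the 6-carbon sugar, read 13802.8, 8778.6 and 8707.5 against 8898.8, 8805.9 and 9378.2. Only WT replicate 1 stood out, and the sign of the Aldoa change turned with quantile normalization (log2 change 0.05) and without that array. Aldoa reached 77.1% to 88.8% of the brightest probe set of its array, so differences at this level may be understated. Aldoc, the brain aldolase, stood near or below the offset in every array, at 0.8 to 20.4. Tpi1, which interconverts the triose phosphates, read 4187.4, 3632.6 and 3100.1 against 3837.8, 3992.3 and 2149.1, and only KO replicate 3 lay below the WT range; without it the log2 change was 0.12, against -0.17 with it.

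The last steps of glycolysis, down to pyruvate, read lowest in KO replicate 3. All 5 measured members of lower glycolysis had lower KO-labelled means, with and without quantile normalization, and the median log2 change was -0.56 (-0.40 with quantile normalization), against -0.02 for all genes. The median distance of these members from the WT-labelled mean was -0.16, -0.42 and -0.88 on the log2 scale in KO-labelled replicates 1, 2 and 3, and 0.36, -0.14 and -0.22 in the WT-labelled ones. With quantile normalization KO replicate 1 lay at 0.02 and KO replicates 2 and 3 at -0.31 and -0.92. The sum of the fibroblast markers was lowest in the same array: the 6 genes summed to 7376.5 to 12865.7 in WT-labelled arrays, to 7151.2 and 7622.9 in KO replicates 1 and 2 and to 3609.6 in KO replicate 3. Of the 6 genes 5 had lower KO-labelled means, and 1, Pdgfra, had a higher one (log2 change 0.45). Col1a1 had the largest decrease of the list (log2 change -1.37). Col1a1 read 1561.8, 1444.4 and 503.2 in the KO-labelled arrays, and the part of these cells in the lower glycolysis values was not tested.

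Pgam2, the muscle phosphoglycerate mutase, read 5434.6, 3855.5 and 3645.3 against 3514.2, 2411.5 and 520.6. KO replicate 1 lay just under the lowest WT-labelled array and KO replicate 3 far under the others. The change was 2.56-fold lower, with an interval (0.860 to 7.63) that includes no change (limma adjusted p = 0.622). Without KO replicate 3 it was 1.45-fold lower. Pgam1, the form of most other tissues, read 120.2, 70.0 and 71.6 against 60.4, 46.5 and 38.7, 1.58-fold lower (interval 1.09 to 2.29, adjusted p = 0.562). With quantile normalization the Pgam1 change was again 1.58-fold, although the groups then overlapped.

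Eno3, the muscle enolase, read 11849.4, 7553.6 and 7988.3 against 7978.6, 6699.9 and 4180.4, and the groups overlapped because KO replicate 1 lay within the WT range. Its log2 change of -0.56 was -0.29 without KO replicate 3 and -0.36 without WT replicate 1. Pgk1, the X-linked phosphoglycerate kinase that makes ATP, read 8385.9, 6708.6 and 5697.4 against 6839.8, 6983.7 and 4948.3. Its log2 change of -0.15 came to 0.00017 without WT replicate 1 and 0.014 without KO replicate 3. Pkm, the pyruvate kinase of the last step, read 4343.3, 4004.3 and 3325.0 against 3757.4, 3686.2 and 2690.2, with a log2 change of -0.21 (interval -0.65 to 0.22), or -0.055 without KO replicate 3 and -0.13 without WT replicate 1. In all of these the KO-labelled array with the lowest reading was replicate 3.

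Gapdh, the dehydrogenase of the step before Pgk1 and a common reference gene, was read at its array controls. Its 3′ control probe set read 11750.2, 7615.7 and 7565.7 against 7698.4, 8085.8 and 7633.6. Apart from WT replicate 1, all arrays lay within the range of 7565.7 to 8085.8. The brightest tested probe set of an array read 10099.5 to 17905.4, so differences at this level may be understated, as for Aldoa. The probe sets that also name pseudogenes overlapped too: 1418625_s_at read 12174, 7201.1 and 7729.8 against 7419.9, 7367.5 and 8156.8, and the dimmer ones 281.7 to 477.2 against 296.2 to 397.2 and 46.8 to 134.4 against 53.2 to 103.7. Control probe sets were not in the fit, and Gapdh pseudogenes may share the signal. The ratio of the 3′ to the 5′ Gapdh control, a sign of RNA quality, was 0.827 to 0.836 in the WT-labelled and 0.811 to 0.846 in the KO-labelled arrays. The 5′ control read 9104.5 to 14216.3, also near the top of the scale, which limits what this ratio can show.

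Lactate dehydrogenase is built from an A subunit (Ldha), typical of fast muscle, and a B subunit (Ldhb), typical of heart and slow muscle. Ldha read 7849.0, 5891.5 and 5373.0 against 5244.5, 3875.4 and 1934.0. All KO-labelled arrays were lower than all WT-labelled ones, narrowly so for KO replicate 1, and the change was 1.84-fold lower (interval 1.01 to 3.37, limma adjusted p = 0.581), or 1.39-fold lower without KO replicate 3. Ldhb read 725.7, 599.4 and 440.9 against 676.4, 1040.0 and 655.3, with the highest reading in KO replicate 2 and a log2 change of 0.41 (interval -0.18 to 1.01). Averaged over its probe sets, or without WT replicate 3, the Ldhb change was 0.23 or 0.22. All 4 Ldhb probe sets had a higher KO-labelled mean.

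Ratios between forms of an enzyme within an array do not move with the overall brightness of that array, where both probe sets are well above the offset. The log2 ratio of Ldha to Ldhb was 3.41, 3.26 and 3.56 against 2.93, 1.88 and 1.54. The groups did not overlap, and the ratio was lower by 1.29 in the mean (exact permutation test, two-sided, p = 0.1, the smallest that 3 against 3 allows; 0.3 adjusted over 6 pairs). For Pfkm to Pfkl it was 4.11, 4.81 and 4.28 against 5.92, 5.77 and 5.96, higher by 1.48, again with no overlap and an exact p of 0.1 (0.3 adjusted). With each gene's probe sets averaged the Pfkm to Pfkl difference was 0.74, and with an offset of 64 it was 1.05. The 2 pairs thus differed in opposite directions: the muscle form was lower relative to the other form for lactate dehydrogenase and higher for phosphofructokinase.

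The other pairs overlapped. Pgam2 to Pgam1 read 5.32, 5.49 and 5.39 against 5.53, 5.28 and 3.29, so only KO replicate 3 was apart, and the mean difference of -0.70 became 0.0046 without it (exact permutation p = 0.5 with all arrays). Pygm to Pygb differed by 0.33 (exact p = 0.2) and Hk2 to Hk1 by -0.16 (exact p = 0.6). Pygb read 14 to 37.6, near the offset. Its own log2 change was -0.59 with an offset of 1 and -0.17 with one of 64, so the Pygm to Pygb difference depends on the offset too. Aldoc read 0.8 to 20.4, near or below the offset, so the Aldoa to Aldoc difference depended on that offset, 1.76 with an offset of 1 and 0.023 with one of 64, and no value is read from it. A ratio shows unequal change and not which form was steady. The Eno3 to Eno1 pair was not analysed here.

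**Figure D2:**
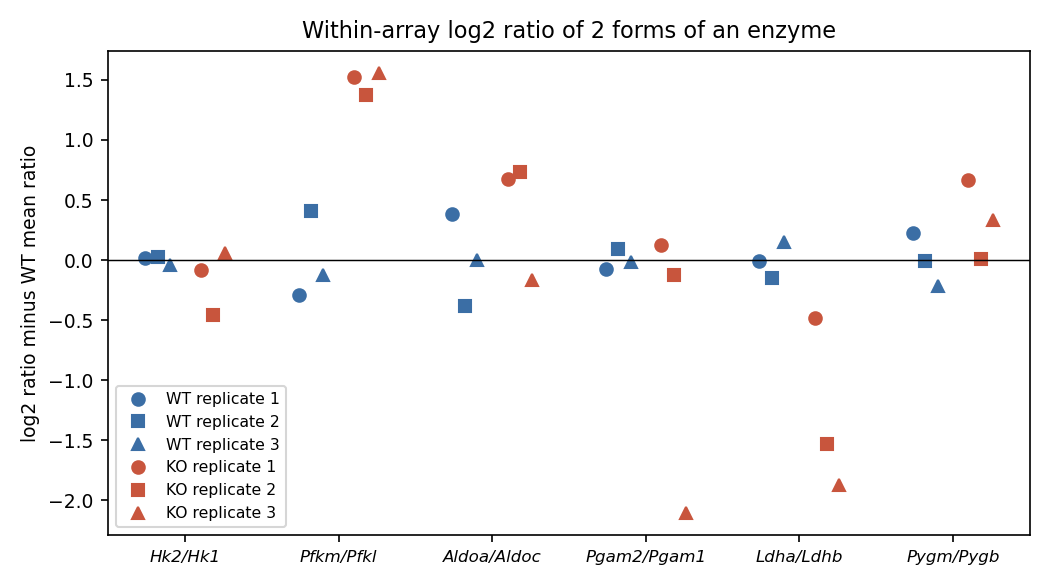
Within-array log2 ratio of 2 forms of an enzyme, minus the mean ratio of the WT-labelled arrays, for 6 pairs (each point 1 array, n = 3 per group). The KO-labelled points of Pfkm/Pfkl all lie above and those of Ldha/Ldhb all below the WT-labelled ones, and Pgam2/Pgam1 is apart in KO replicate 3 alone. The Aldoa/Aldoc and Pygm/Pygb points depend on the offset.

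Fibre type markers were read beside these enzymes. Of 12 slow fibre markers 9 had higher KO-labelled means, where 53.2% of all genes had lower ones. The slow fibre markers summed to 2964.9 to 5986.0 in the WT-labelled and 3685.4 to 10655.5 in the KO-labelled arrays. The highest sum was that of KO replicate 2, which was also highest for Ldhb and Fbp2. Myh7, the slow myosin, read 167.7, 313.0 and 87.2 against 420.4, 1859.9 and 281.1, and Myl2 and Myl3 had higher KO-labelled means as well (log2 changes of 0.65 and 0.72). In KO replicate 3 the slow fibre sum was 3685.4, inside the WT range. The median log2 distance of these markers from the WT-labelled mean was 0.22 there, and -0.63 to 0.59 in the WT-labelled arrays. Pgam2 and Ldha were at their lowest in KO replicate 3. The fast fibre markers of KO replicate 3 had a median log2 distance of -0.18 from the WT-labelled mean, against -0.20 and -0.24 in the other KO-labelled arrays. After quantile normalization it was 0.02. These 12 markers summed to 94003.5 in KO replicate 3, where the brightest tested probe set read 10562.5. Several of them thus stood near the top of the scale, and differences among them may be understated. Within that list Casq1, the calcium store of the fast fibre and named after its values were seen, read 2434.2 in KO replicate 3 and 6315.4 and 5730.2 in KO replicates 1 and 2. The part of fibre type in the Pgam2, Ldha, Ldhb and Fbp2 values was not tested.

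**Figure D3:**
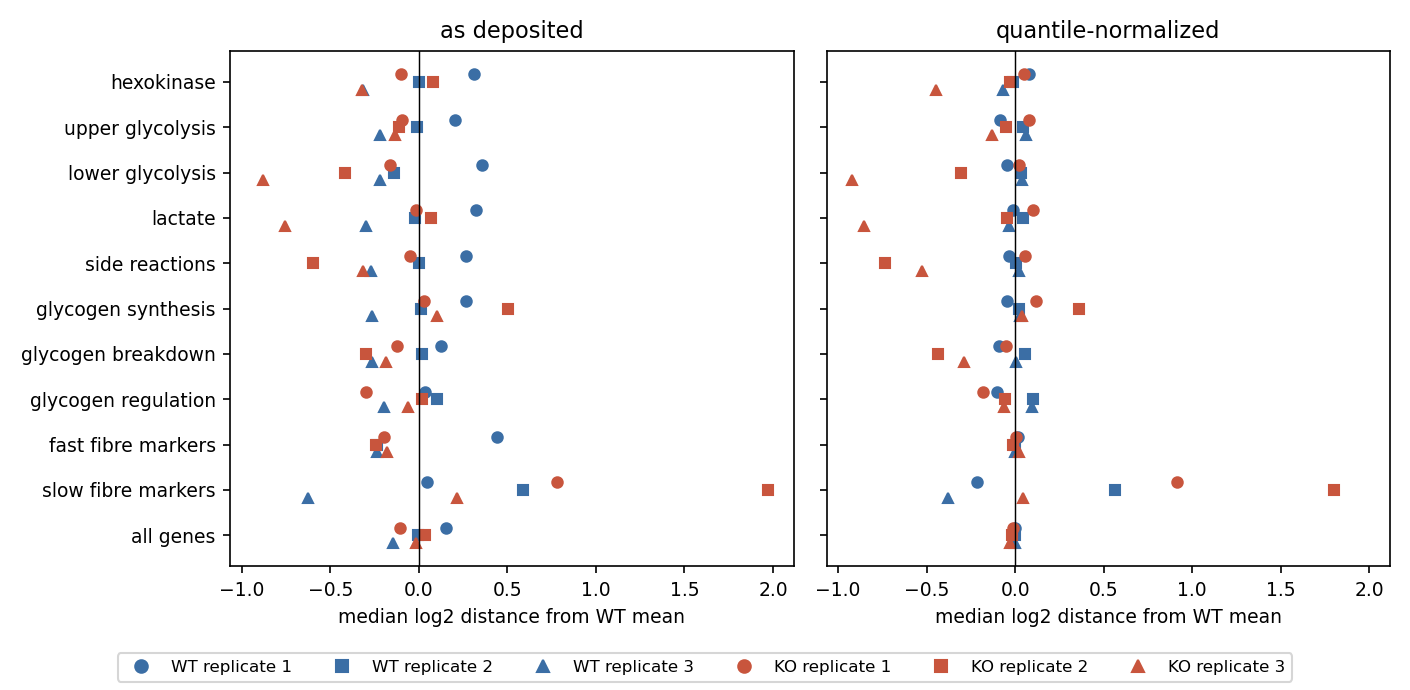
Median distance of each array from the WT-labelled mean (log2), for the 8 roles, for fast and slow fibre markers and for all genes, from the deposited values (left) and after quantile normalization (right). KO replicate 3 lies lowest for lower glycolysis (-0.88 and -0.92) and lactate. Its fast fibre markers, several of them near the top of the scale, lie close to those of the other KO-labelled arrays.

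Enzymes beside the main path differed in both directions. Fbp2, the muscle fructose bisphosphatase that runs the phosphofructokinase step backward, read 80.6, 113.4 and 50.8 against 97.3, 316.0 and 180.5. KO replicate 1 lay within the WT range and the other KO-labelled arrays above it, and the change was 2.07-fold higher (interval 1.04 to 4.12, limma adjusted p = 0.575), the largest increase in the mean among the members. Gpd1, the cytosolic enzyme that links glycolysis to glycerol 3-phosphate, read 910.1, 595.1 and 555.7 against 427.6, 373.0 and 275.4, with no overlap and a change of 1.86-fold lower (interval 1.25 to 2.77, adjusted p = 0.524). Its probe sets 1416204_at and 1439396_x_at did not overlap either, at 589.9 to 766.9 against 307.6 to 429.5 and 61.8 to 92.4 against 51.0 to 55.2, and nor did the remaining 1456732_at, at 0.3 to 3.5 far below the offset.

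Gpd2, the mitochondrial partner of Gpd1 in the glycerol phosphate shuttle, gave a divided reading. Its representative probe set 1428323_at overlapped, at 711.7, 589.8 and 484.8 against 567.4, 384.1 and 469.7, but 1417434_at read 575.3, 348.5 and 327.6 against 271.6, 239.0 and 219.7 with no overlap. Of the dimmer ones, 1452741_s_at did not overlap, at 19.2 to 38.8 against 1.5 to 13.9, and 1428324_at overlapped. The KO-labelled mean was lower at all 4 Gpd2 probe sets.

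Markers of fat were read beside these values. Of 9 measured adipocyte genes 7 had lower KO-labelled means, where 53.2% of all genes did. In 4 of the 9, Lep, Retn, Cidea and Ucp1, every KO-labelled array lay below the WT-labelled ones, where 8.34% of all genes did so. Ucp1, the uncoupling protein of brown fat, read 877.2, 570.3 and 586.1 against 129.9, 5.9 and 2.3, and Cidea 824.0, 429.9 and 442.0 against 164.0, 135.8 and 191.2. Adipoq overlapped, at 606.9, 295.6 and 293.9 against 131.0, 277.8 and 339.5, Plin4 was higher in every KO-labelled array, and no measured adipocyte gene was at 0 in all arrays. The summed level of the list was 5578.2 to 10311.5 in the WT-labelled and 4600.0, 8411.1 and 8342.0 in KO replicates 1 to 3. Set against the WT-labelled mean, the list had a median log2 difference of -0.90, -0.39 and -0.24 in these arrays, lowest in KO replicate 1. Single genes of the list differed in this: Adipoq was lowest in KO replicate 1, Cidea in KO replicate 2 and Ucp1 in KO replicate 3. Pfkl and Gpd1 were lowest in KO replicate 3. Cidea, Ucp1 and Plin4 were named after their values were seen. The part of fat in the Pfkl, Gpd1 and Gpd2 values was not tested.

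**Figure D4:**
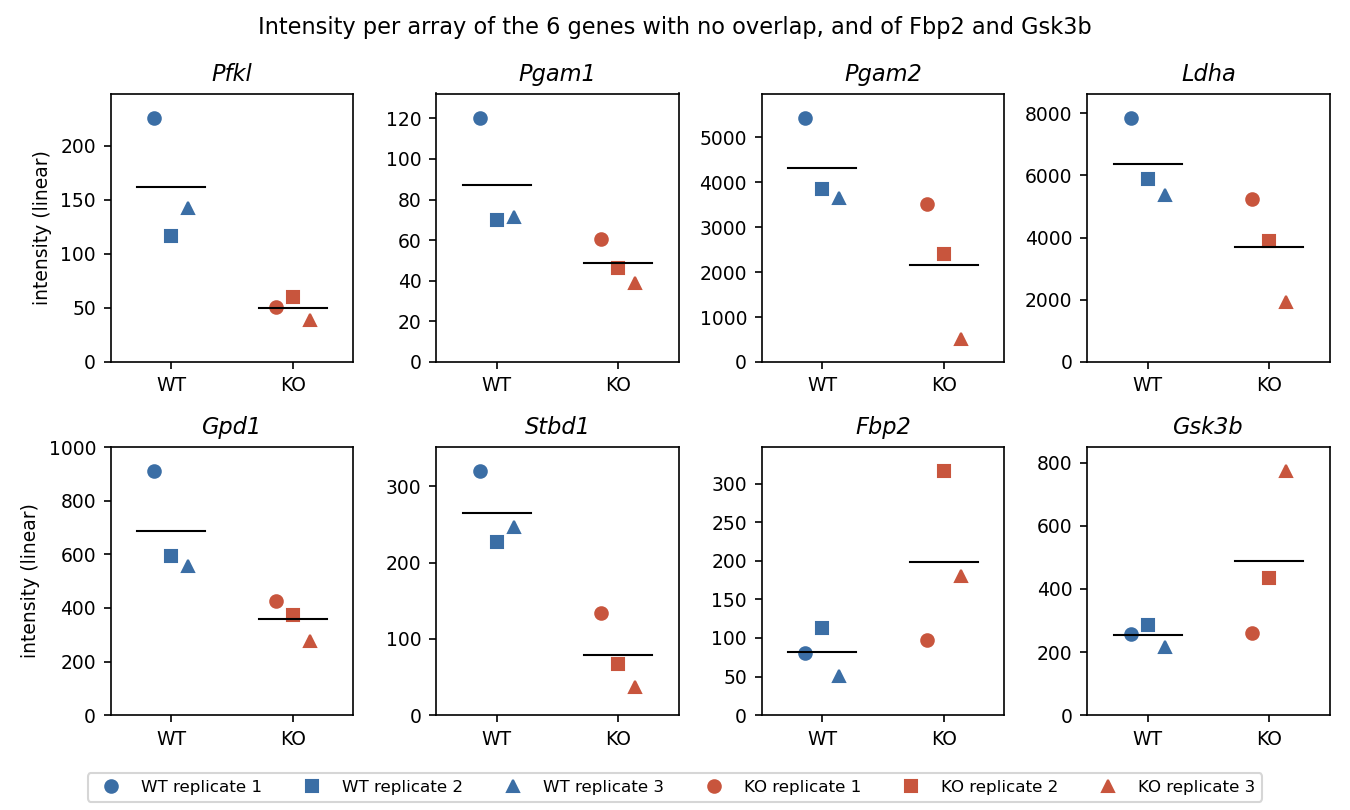
Deposited intensity per array (linear axes from 0, 1 point per array, bar at the group mean, n = 3 each) for the 6 genes without overlap and for Fbp2 and Gsk3b. Pfkl, Gpd1 and Stbd1 are lower in each KO-labelled array, whereas for Pgam2 and Ldha the distance is mostly that of KO replicates 2 and 3.

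On the glycogen side no gene of synthesis or breakdown passed the test. Of all genes 53.2% had a lower KO-labelled mean. Of the 6 synthesis genes 5 had higher KO-labelled means (median log2 change 0.23, or 0.20 with quantile normalization), and all 6 breakdown genes had lower ones (median -0.38, or -0.43). The sign of Pgm2, Ugp2 and Gys1 among the former and of Pygm and Phkb among the latter turned when 1 array was left out, and that of Pygm also with quantile normalization (log2 change 0.01). The difference between synthesis and breakdown was not tested. In 0 of these 12 genes were the groups apart in the deposited values, against 8.34% (below) and 4.51% (above) of all genes. Over all 17 glycogen genes the median was -0.03.

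Gyg, glycogenin, which primes the glycogen chain, read 865.8, 889.0 and 674.1 against 842.6, 1113.5 and 1357.3 at its representative probe set and 793.2, 748.8 and 578.0 against 805.9, 1075.3 and 1208.3 at 1448429_at. At the latter all KO-labelled arrays were above all WT-labelled ones, KO replicate 1 only just. The representative change was 0.42 on the log2 scale (interval -0.07 to 0.92, limma adjusted p = 0.626), or 0.26 without KO replicate 3. Gys1, the muscle glycogen synthase, read 521.4, 599.4 and 336.8 against 459.9, 759.1 and 456.8, and its change of 0.19 turned to -0.04 without WT replicate 3 or KO replicate 2. Ugp2, which makes UDP-glucose, read 1425.8, 1150.5 and 953.4 against 1029.6, 1274.4 and 2101.8, and without KO replicate 3, the only array above the WT range, the log2 change was -0.02 in place of 0.27. Gbe1, the branching enzyme, read 71.4, 55.8 and 39.0 against 57.5, 95.8 and 67.3.

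Pgm1, the phosphoglucomutase that joins glycogen to glycolysis, was the 1 synthesis gene with a lower mean. It read 1599.7, 1250.8 and 1107.6 against 1291.6, 842.5 and 376.1, so that KO replicate 1 lay within the WT range. KO replicate 3 lay far below that range, as it did for Pgam2. The change was 1.74-fold lower (interval 0.864 to 3.48, limma adjusted p = 0.650) and 1.25-fold lower without KO replicate 3. Pgm2 was near the offset, at 10.7 to 19.6 and 12.3 to 28. The names Pgm1 and Pgm2 were once exchanged in the mouse, and the genes were matched here by identifier.

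Glycogen phosphorylase of muscle did not differ beyond its spread. Pygm, the gene lost in McArdle disease, read 6713.1, 5165.1 and 4684.0 against 5097.2, 5539.7 and 5377.6, with a log2 change of -0.03 (interval -0.42 to 0.35). Pygl, the liver form, read 151.6, 65.1 and 71.4 against 26.2, 47.9 and 104.6, and Pygb, the brain form, 37.6, 32.5 and 34.8 against 14, 35.5 and 23.9; in both the groups overlapped. The Pygl change was -0.62 with all arrays, -0.29 without WT replicate 1. Leaving out KO replicate 1 gave -0.27, and leaving out KO replicate 3 gave -1.03.

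The subunits of phosphorylase kinase, which activates the phosphorylase, overlapped in their muscle forms. The muscle catalytic subunit Phkg1 read 581.5, 627.3 and 462.7 against 497.4, 392.4 and 253.0 (log2 change -0.57, interval -1.18 to 0.04) and the X-linked muscle regulatory subunit Phka1 535.7, 705.6 and 414.5 against 591.0, 408.2 and 275.5 (-0.40, interval -1.13 to 0.33). Without KO replicate 3 these changes were -0.31 and -0.13. Phkb, the shared regulatory subunit, read 383 ± 66.5 and 363 ± 32.3. The liver forms, which are no members, were higher in every KO-labelled array: Phka2 read 41.1, 41.2 and 40.1 against 52.5, 59.6 and 68.8 and Phkg2 33.8, 40.6 and 34.4 against 47.1, 53.7 and 53.9. The log2 changes were 0.42 and 0.37, and neither passed (limma adjusted p = 0.529 and 0.552). Phkg2 was chosen after its values were seen.

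Stbd1, which binds glycogen and tethers it to membranes for breakdown in lysosomes, had the largest decrease in the mean among the members. It read 320.1, 226.9 and 246.9 against 133.8, 66.9 and 36.3. The groups lay well apart, and the change was 3.21-fold lower (interval 1.74 to 5.91) with limma's adjusted p at 0.511 over all probe sets. It was 2.92-fold lower without WT replicate 1, 2.49-fold lower without KO replicate 3 and 4.22-fold lower without KO replicate 1.

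Gsk3b, a kinase that inhibits glycogen synthase, read 256.2, 286.3 and 217.3 against 261.0, 434.5 and 773.3. KO replicate 1 lay within the WT range and the other KO-labelled arrays above it, and the change was 1.72-fold higher (interval 0.950 to 3.13, limma adjusted p = 0.607), 1.32-fold without KO replicate 3. All 6 Gsk3b probe sets had higher KO-labelled means. Ppp1r3c, a subunit that targets protein phosphatase 1 to glycogen, read 761.6, 573.9 and 346.2 against 648.7, 520.1 and 437.4, and Ppp1r3a, its counterpart in muscle, was dim at 17.7 to 28.3 and 15.5 to 23.2. Epm2a, the glycogen phosphatase laforin, read 20.7 to 23.4 and 11.4 to 32.4.

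The call depended on which probe sets entered the test. Refitted to the 22518 probe sets above the median level, where 79 passed (0.351%), limma called 2 of the 70 member probe sets, those of Pfkl (adjusted p = 0.0339) and Stbd1 (adjusted p = 0.0342), both lower (2.86% of the 70). Neither passed the refit without WT replicate 1 (adjusted p = 0.352 and 0.411), WT replicate 3 (0.188 and 0.225) or KO replicate 2 (0.150 and 0.209), nor with quantile normalization (0.0566 and 0.118). Without KO replicate 1, 10 member probe sets passed, those of Pgam2, Ldha, Gpd1 and Pgm1 lower and those of Fbp2 and Gsk3b higher among them; that is 14.3% of the members' 70, in a refit where 6% of all filtered probe sets passed. Without KO replicate 3 there were 4 (5.71%, against 1.39%), of Pfkl, Fbp2, Pygl and Stbd1. In that refit limma gave the members nearly the same standard error whatever their own spread. Its calls there followed the size of the change.

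Other genes of the pathway were listed apart from the members. Of 41 listed, 34 were measured, 20 with lower and 14 with higher KO-labelled means (median log2 change -0.06), and 0 passed limma's test, with 6 lower (17.6%, against 6.29% of all genes) and 3 higher (8.82%, against 3.54%) at an unadjusted p under 0.05. The KO-labelled arrays were all below in 5 (14.7%, against 8.34% of all genes) and all above in 2 (5.88%, against 4.51%). Those with the lowest p were Gapdhs, the sperm form of Gapdh, at 31.1, 60.8 and 40.5 against 19.1, 18.2 and 13.3, Ppp1r3b, the liver glycogen targeting subunit, at 15.8 to 19.0 against 1.6 to 10.9, Eno4, an enolase of sperm, at 20.4 to 23.6 against 11.3 to 13.8, and Phka2. Of these only Gapdhs and Phka2 had a group mean above 40. Bpgm, which makes 2,3-bisphosphoglycerate in red cells and was named after its values were seen, read 167.6, 193.3 and 139.7 against 132.4, 90.6 and 30.2. All 4 measured red cell markers overlapped, with sums of 87.4, 75 and 49.5 against 59.8, 59.5 and 41.9, and 3 had lower KO-labelled means. Only 1 of the 4 was above the median level, so these dim markers could not show whether red cells differed. The part of red cells in the Bpgm values was not tested. Of the remaining marker lists, 7 macrophage genes summed to 343.2 to 537.6 against 285.8 to 473.8, 6 endothelial genes to 375.2 to 465.7 against 338.7 to 604.9 and 4 Schwann cell genes to 302.1 to 505.5 against 404.0 to 816.2.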

How the data were processed

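Total RNA from 6 muscles went onto Affymetrix Mouse Genome 430 2.0 arrays, per the labels' protocols. The authors deposited linear intensity values, 1 for each probe set of an array. The software, scaling and background correction behind them are not stated in the labels or headers. After 64 control probe sets were set aside, log2(intensity + 16) was fitted for 45037 probe sets with no further normalization, which understates changes of dim ones. KO was compared with WT in limma 3.58.1 (lmFit, eBayes; R 4.3.3), two-sided, p-values being adjusted by Benjamini-Hochberg across the whole table, with 0.05 as threshold; the script was tested on simulated data. Intervals are at the 95% level, levels are mean ± SD, and the number of arrays limits the precision.

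Symbols came from the platform annotation (34945 probe sets with 1 symbol, 932 with several, 9160 not listed), and 34741 matched RefSeq. Probe sets ending in _s_at or _x_at can share signal with related transcripts. Nothing states that samples came from separate litters or batches, so p-values measure the spread between these arrays. Limma pools that spread over probe sets, and did so almost wholly in the filtered refit without KO replicate 3. The members and all lists were chosen with earlier results of these data known. Named genes are every member, the 4 other pathway genes with the lowest p, the first 3 measured genes of marker lists, and those said to be chosen after their values were seen. Alternatives were quantile normalization, median centring, offsets of 1 and 64, a filter at the median level, trended and robust variances, a replicate block, leaving out each array, and averaging a gene's probe sets. The filter combined with other settings, and the overlap counts under each setting, were chosen after seeing the data.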

Additional observations from a re-analysis of the deposited data

How the results depend on the processing

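No member passed limma's adjusted test over all probe sets in any setting without the filter. With the filter at the median level 2 member probe sets passed, and with 1 array left out as well 0 to 10 did (2 when it was WT replicate 2, 10 for KO replicate 1 and 4 for KO replicate 3). Over all probe sets, 4 as reported became 9 with quantile normalization, 11 with median centring, 1 with an offset of 64, 15 with trended and robust variance, 79 with the filter, 28 with the filter and quantile normalization, and 1 to 6 with an array left out. With the filter and an array left out there were 8 (without WT replicate 1), 67 (WT replicate 2), 8 (WT replicate 3), 1350 (KO replicate 1), 13 (KO replicate 2) and 312 (KO replicate 3). With the replicate number as a block 0 probe sets passed; same-numbered samples correlated at -0.0055, 0.021 and -0.040, so the numbers did not pair them. The glycogen median ranged from -0.21 to 0.028 with an array left out. The median over all members ranged from -0.29 to -0.038 with an array left out, where that of all genes ranged from -0.07 to 0.036. Members without overlap numbered 6 to 12 below (17.1% to 34.3%, against 10.2% to 19.1% of all genes) and 0 to 4 above (0% to 11.4%, against 5.94% to 16.4%) with an array left out, and 3 above (8.57%, against 8.86%) with quantile normalization.

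Of the 35 genes 23 kept their direction in every setting run and 12 did not. With quantile normalization Aldoa turned to 0.053 and Pygm to 0.012. Ppp1r3c turned to 0.0085 and Epm2a to 0.0090 with median centring, and Epm2a to 0.0043 with an offset of 64 and 0.062 with the mean of its probe sets. Leaving out an array gave log2 changes of -0.21 to 0.12 for Hk1, -0.029 to 0.19 for Pfkm, -0.29 to 0.046 for Aldoa, -0.33 to 0.12 for Tpi1, -0.28 to 0.014 for Pgk1, -0.0032 to 0.32 for Pgm2, -0.019 to 0.49 for Ugp2, -0.043 to 0.36 for Gys1, -0.14 to 0.12 for Pygm, -0.21 to 0.028 for Phkb, -0.31 to 0.24 for Ppp1r3c and -0.19 to 0.22 for Epm2a. The Pgam2 to Pgam1 ratio ranged from -1.11 to 0.0046. The cause was not tested for any of these. The Eno3 to Eno1 pair was not run, since no probe set was named to Eno1 alone.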
